A study of Caenorhabditis elegans with 16 samples.

Results

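Messenger RNA of whole Caenorhabditis elegans was sequenced at day 8 of age in 8 libraries, of 16 in the series, and these 8 fall into 2 sets by their number. The sets are the day 8 libraries numbered 3 or 4 in the labels and those numbered 1 or 2, with 4 libraries in each: 2 from animals fasted for 6 h and 2 from animals fed freely. The sets were chosen by the measured expression values themselves, on the third principal component of all 16 libraries (5.07% of the variance). Differences between the sets are therefore given as a description, with no test, and tests are kept for contrasts that the split did not use. All animals were the wild-type N2 Bristol strain kept on NGM plates at 20 °C. The other 8 libraries came from young adults, 4 fasted for 6 h and 4 fed, numbered in the same way. The stated aim of the series was to pick out fasting responses of young animals that aged ones lack. The labels name the tissue as whole nematodes. They do not say whether a number stands for a separate culture, nor how animals of other ages were kept apart, so each p below reflects nothing but the scatter among libraries.

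The cuticle of C. elegans is a collagen matrix made by the hypodermis. A first cuticle is laid down late in embryogenesis, shortly before the hatching protease opens the eggshell, and a new one is built at each larval molt and at the passage to adulthood, with different collagens at different stages. An adult hermaphrodite carries a syncytial germline, oocytes and developing embryos in the uterus, and its intestine makes the yolk proteins that oocytes take up. RNA of whole animals thus adds up somatic tissues, germline and whatever embryos are present. In such bulk libraries, fewer cells of a type and less RNA per cell cannot be told apart.

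Libraries held 65.24 to 117.7 M counts (M, 1e6) in libraries 3 and 4, 68.6 to 91.11 M in libraries 1 and 2 and 58.38 to 90.44 M in young adults. Levels are counts per 1e6 counts (CPM) after TMM scaling, and ± is the SD over the 4 libraries of a set or of a young group unless said otherwise. TMM is edgeR's trimmed mean scaling, whose factors were 1.23 to 1.33, 1.04 to 1.08 and 0.792 to 0.944 in the same order. Libraries 3 and 4 detected more genes. A count above 0 was found for 20363 to 20764 genes in libraries 3 and 4, 18993 to 19300 in libraries 1 and 2 and 18215 to 18943 in young libraries. The 3467 genes that stayed under 0.1 CPM in every young library summed to 333 to 403 CPM in libraries 3 and 4, 166 to 210 CPM in libraries 1 and 2 and 27.5 to 42.4 CPM in young libraries. Their median level per kilobase of exon was 0.0374 to 0.0459 CPM, 0 to 0.00896 CPM and 0 CPM. This broad low-level signal ran along with the split, and its part in the differences below was not tested. The share of counts from mitochondrial DNA genes was alike, at 0.26 to 0.436% in libraries 3 and 4 and 0.266 to 0.359% in libraries 1 and 2.

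A gene was counted as higher if all 4 libraries 3 and 4 exceeded all 4 libraries 1 and 2 and the log2 difference, averaged over fasted and fed animals, was at least 1. It was counted as lower if the reverse held. By this rule 2375 of 17844 genes were higher (13.3%) and 133 were lower (0.745%). These shares are the background for the lists below, except where genes of a like level are used instead. Without the 2-fold minimum the sides were even: 5067 genes (28.4%) had all of libraries 3 and 4 above all of libraries 1 and 2, and 5150 (28.9%) had all of them below. The many genes below thus differed by less than 2-fold, and those above spread further, with the 5th and 95th percentiles of the log2 difference at -0.59 and 1.7. The median over all genes was 0.16 with TMM, 0.21 with RLE (the DESeq2 size factors) and 0.42 without scaling factors, so a list is best read against that shift. Just inside the 2-fold limit was rimb-1 at a log2 difference of 1.0001 and just outside was gad-2 at 0.9994. On the lower side these were pzf-1 at -1.0002 and lipl-4 at -0.995.

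Most of the higher genes were scarce. Of the 2375, 2007 had a mean under 10 CPM in libraries 3 and 4, and the medians over the higher genes were 1.25 CPM in libraries 3 and 4, 0.444 CPM in libraries 1 and 2 and 0.85 CPM in young adults. The median log2 difference fell off with the level in young adults: it was 0.87 for the 1213 genes up to 0.1 CPM, 0.66 for 3605 genes up to 1 CPM, 0.43 for 4963 genes up to 10 CPM, -0.21 for 5832 genes up to 100 CPM and -0.30 for 2231 genes above that. Among the 7633 genes with at least 10 CPM in the higher set, 368 (4.82%) were higher and 65 (0.852%) were lower, and 61.1% had all of libraries 3 and 4 below all of libraries 1 and 2. Higher genes made up 16.9% of the genes kept on chromosome X, 14.9% on V, 13.2% on II, 12.4% on IV, 11.6% on I and 10.4% on III. Among 951 pseudogenes 19.9% were higher, and among 16808 protein-coding genes 12.9%.

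**Figure D1:**
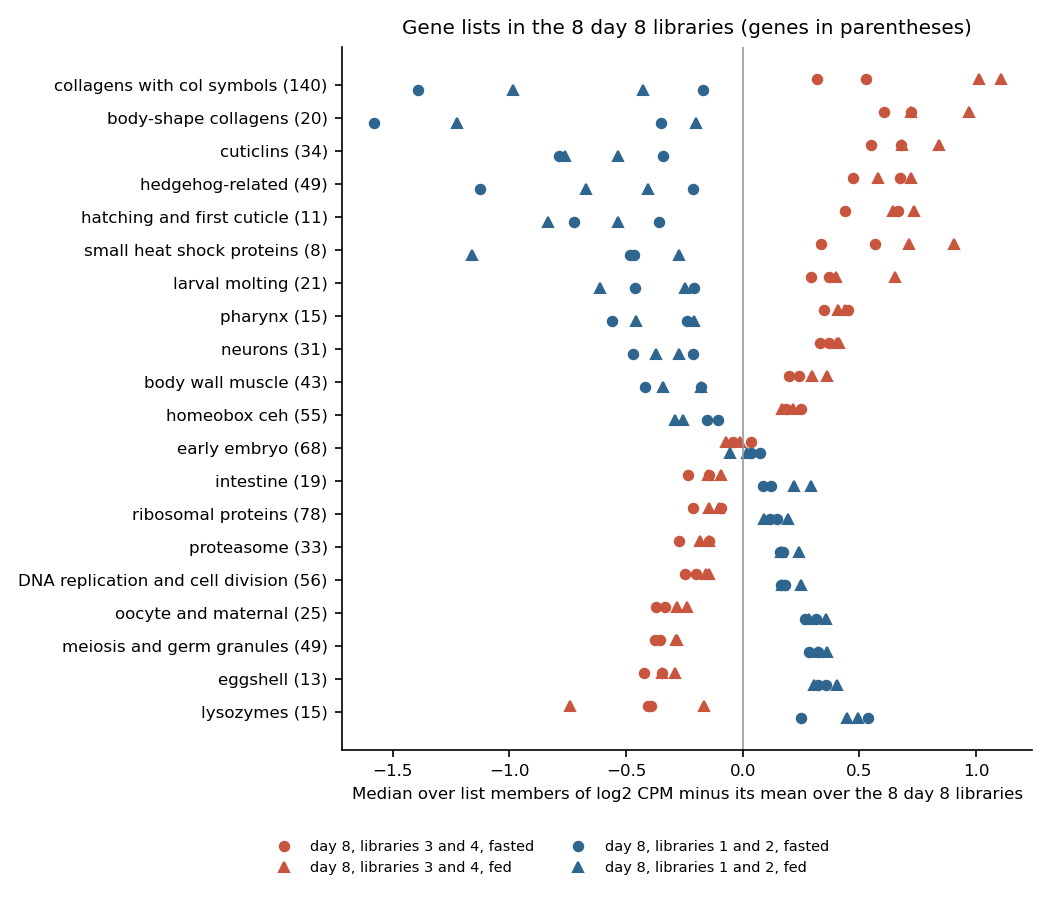
Median over the members of each gene list of log2 CPM minus the gene's mean over the 8 day 8 libraries (horizontal axis, log2 units), for 20 lists (vertical axis, number of genes in parentheses). Each point is a library, in red for libraries 3 and 4 and blue for libraries 1 and 2, circles fasted and triangles fed. Cuticle, hatching and hedgehog-related lists lie to the right in libraries 3 and 4, germline and eggshell lists to the left, and the early embryo list overlaps.

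Stage by stage, the sets differed little for early embryonic genes and more for genes of the late embryo and larva. The list of early embryonic genes (zygotic regulators, T-box, sdz and vet genes) had 7 of 68 kept members higher and 0 lower, with a median log2 difference of -0.08, and its summed level was close in both, at 592 to 623 CPM in libraries 3 and 4 and 623 to 658 CPM in libraries 1 and 2. The median was -0.03 with RLE and 0.18 without scaling factors, so it has no settled direction. In contrast, the list of hatching and first cuticle genes had 9 of 11 kept members higher and 0 lower, with a median log2 difference of 1.25, and all 11 had libraries 3 and 4 above libraries 1 and 2. Larval molting genes had 9 of 21 kept members higher and 0 lower, with a median log2 difference of 0.86. Heterochronic genes, which time larval stages, had 1 of 7 kept members higher and 0 lower, a share close to the background of 13.3%. Their median log2 difference was 0.52.

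The hatching protease gene hch-1 (WBGene00001828, chromosome X, 14696411 to 14699977) stood at 64.3 and 79.2 CPM in fasted and 89.1 and 90.9 CPM in fed libraries 3 and 4. It had 33.9 and 28.7 CPM in fasted and 34.5 and 28 CPM in fed libraries 1 and 2. The sets did not overlap, with a log2 difference of 1.36, and hch-1 was nearly silent in young adults (0.429 ± 0.15 CPM in fasted and 0.0313 ± 0.0345 CPM in fed young libraries, SD, n = 4 each). The embryonic matrix gene noah-1, which encodes a zona pellucida domain protein, averaged 201 ± 22.7 CPM in libraries 3 and 4 and 84 ± 15.4 CPM in libraries 1 and 2, with no overlap and a log2 difference of 1.27. Its paralog noah-2 followed at 1.31 (126 ± 12.5 CPM in libraries 3 and 4 and 51.4 ± 11 CPM in libraries 1 and 2, SD, n = 4 each). The dendrite anchoring gene dyf-7 had the largest difference of this list at 1.89 (16.8 ± 1.43 CPM in libraries 3 and 4 and 4.59 ± 0.977 CPM in libraries 1 and 2), and lpr-3, a lipocalin of the precuticle, had 1.33 (57.3 ± 5.38 CPM in libraries 3 and 4 and 23.4 ± 6.05 CPM in libraries 1 and 2). Among molting genes, acn-1 stood at 1.71 (35.3 ± 4.56 CPM in libraries 3 and 4 and 11.1 ± 3.55 CPM in libraries 1 and 2), the patched-related ptr-4 at 1.87 (23.4 ± 3.16 CPM in libraries 3 and 4 and 6.56 ± 2.02 CPM in libraries 1 and 2), mlt-9 at 1.70 (10.3 ± 1.26 CPM in libraries 3 and 4 and 3.21 ± 0.833 CPM in libraries 1 and 2) and the astacin protease gene nas-6 at 2.02 (1.48 ± 0.317 CPM in libraries 3 and 4 and 0.393 ± 0.253 CPM in libraries 1 and 2). The molting gene mlt-10 had 20.8 and 23.7 CPM in fasted and 27.2 and 27.6 CPM in fed libraries 3 and 4. The level was 14 and 10.8 CPM in fasted and 14.3 and 11 CPM in fed libraries 1 and 2. Its sets did not overlap, but its difference of 0.99 lay just under the 2-fold limit. The hunchback-like regulator hbl-1, which acts in early larval fates, was the 1 heterochronic gene counted as higher at 1.32 (25 ± 3.63 CPM in libraries 3 and 4 and 9.95 ± 1.03 CPM in libraries 1 and 2), while lin-14 had 0.73 and lin-42, a Period-like molting timer, 0.52, both with no overlap.

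Of the 7 early embryo genes counted as higher, dsl-3, named after its values were seen, was the 1 that reached 10 CPM (log2 difference 1.1). Those with the largest differences were scarcer. The NeuroD-like gene cnd-1 had 3.1 and 4.08 CPM in fasted and 2.68 and 4.1 CPM in fed libraries 3 and 4. This compared with 1.21 and 0.492 CPM in fasted and 0.634 and 0.498 CPM in fed libraries 1 and 2, a log2 difference of 2.34. The T-box gene tbx-7 stood at 1.78 (4.79 ± 0.85 CPM in libraries 3 and 4 and 1.4 ± 0.436 CPM in libraries 1 and 2), sdz-24 at 1.79 (2.28 ± 0.699 CPM in libraries 3 and 4 and 0.651 ± 0.241 CPM in libraries 1 and 2) and sdz-8 at 1.59 (1.88 ± 0.271 CPM in libraries 3 and 4 and 0.609 ± 0.1 CPM in libraries 1 and 2). The genes acn-1, tbx-7 and sdz-24, like cutl-8, eat-4, unc-52, pat-2, glp-1, col-19, vit-2 and lov-1 below, overlap a gene on the other strand. The defining early genes did not meet the rule. The T-box gene tbx-37 had 5.6 and 5.78 CPM in fasted and 7.56 and 6.95 CPM in fed libraries 3 and 4. Values were 5.33 and 5.46 CPM in fasted and 5.18 and 5.06 CPM in fed libraries 1 and 2, so the sets did not overlap but differed by only 0.29. The endoderm gene end-1 stayed at or below 0.26 CPM in every library and overlapped between sets, and med-1 did not pass the filter on low counts. The linker histone gene hil-7 belonged to another list of 8 linker histones, of which it was the 1 counted as higher, at 2.06 (40.4 ± 8.07 CPM in libraries 3 and 4 and 9.66 ± 1.81 CPM in libraries 1 and 2).

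Cuticle collagens held the largest differences among higher genes of at least 10 CPM with a lettered symbol (letters, hyphen, number). Genes with other names were not ranked. Of 140 kept genes with col symbols, 67 were higher and 1 was lower, with a median log2 difference of 1.59. Of 20 collagens known from body-shape mutants, 17 were higher and 0 lower (median 1.63). Among the 12 ranked genes with the largest positive difference at 10 CPM or more, 10 were col genes. The gene col-77 (WBGene00000653, chromosome II, 8358228 to 8359381) came first with 5.47 and 9.93 CPM in fasted and 28.2 and 28.3 CPM in fed libraries 3 and 4. There were 3.54 and 0.71 CPM in fasted and 1.41 and 1.18 CPM in fed libraries 1 and 2, a log2 difference of 3.31 on average, at 2.19 in fasted and 4.43 in fed animals. The next was col-93 (WBGene00000668, chromosome III, 10984552 to 10985609) at 28.2 and 37.3 CPM in fasted and 49.3 and 91.8 CPM in fed libraries 3 and 4. The counterparts were 16.3 and 2.25 CPM in fasted and 7.79 and 5.75 CPM in fed libraries 1 and 2, a difference of 2.87. The rest were col-180 at 2.67, col-12 at 2.63, col-159 at 2.63, col-14 at 2.60, col-13 at 2.54, col-39 at 2.44, col-109 at 2.43 and col-92 at 2.43. The remaining places were taken by srw-85, described below, and tag-297 at 2.41 (11.5 ± 2.92 CPM in libraries 3 and 4 and 2.53 ± 1.55 CPM in libraries 1 and 2). Of these, col-93, col-14, col-39 and col-92 overlap a gene on the other strand, and whether counting used strand is not stated. The body-shape collagen dpy-5 had 42.3 and 48.8 CPM in fasted and 80.6 and 63.2 CPM in fed libraries 3 and 4. Its level was 19.1 and 9.05 CPM in fasted and 25.9 and 12.8 CPM in fed libraries 1 and 2, a difference of 1.88. Close to it were dpy-2 at 1.84 (20.3 ± 2.13 CPM in libraries 3 and 4 and 5.84 ± 1.84 CPM in libraries 1 and 2), dpy-7 at 1.82 (13.9 ± 1.46 CPM in libraries 3 and 4 and 4.22 ± 1.9 CPM in libraries 1 and 2) and dpy-13 at 1.80 (75.3 ± 25 CPM in libraries 3 and 4 and 22.3 ± 9.49 CPM in libraries 1 and 2).

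Collagens of the adult cuticle did not follow. The adult collagen col-19 had 5.53 and 14.7 CPM in fasted and 16.9 and 22 CPM in fed libraries 3 and 4. Set against these were 14.6 and 11.4 CPM in fasted and 17.3 and 15.8 CPM in fed libraries 1 and 2, an overlap between sets. Young adults held 1920 ± 11.5 CPM in fasted and 2620 ± 85.1 CPM in fed young libraries (SD, n = 4 each). Its day 8 level was thus a small part of the young one in both sets. The 3 adult collagens had 0 higher and 0 lower, and their median of -0.15 was 0.12 without scaling factors. Several collagens that were higher in libraries 3 and 4 were far more abundant in young adults, such as col-93 at 1420 ± 17.4 CPM in fasted and 3810 ± 218 CPM in fed young libraries, and others were not, such as dpy-7 at 0.355 ± 0.142 CPM in fasted and 0.801 ± 0.111 CPM in fed young libraries. Summed over the col list, day 8 libraries held 1940 to 3230 CPM in libraries 3 and 4 and 1040 to 1700 CPM in libraries 1 and 2, and young libraries held 39800 to 69400 CPM.

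Other surface and secreted families went with the collagens, some of them only in part. Cuticlins, zona pellucida domain proteins of the cuticle, had 20 of 34 kept members higher and 0 lower, with a median log2 difference of 1.35, in a list added after the values were seen. The cuticlin-like genes cutl-9 (21.3 ± 4 CPM in libraries 3 and 4 and 4.79 ± 0.422 CPM in libraries 1 and 2), cutl-21 (15.2 ± 2.47 CPM in libraries 3 and 4 and 3.4 ± 0.495 CPM in libraries 1 and 2) and cutl-8 (9.34 ± 0.341 CPM in libraries 3 and 4 and 1.92 ± 0.473 CPM in libraries 1 and 2) had differences of 2.13, 2.15 and 2.30. Hedgehog-related genes (wrt, grd and grl), many of them made by cuticle-forming epithelia, had 28 of 49 kept members higher and 0 lower, with a median log2 difference of 1.38. Examples are grd-14 at 2.17 (4.32 ± 1.66 CPM in libraries 3 and 4 and 0.946 ± 0.353 CPM in libraries 1 and 2), grd-10 at 2.16 (2.57 ± 0.268 CPM in libraries 3 and 4 and 0.661 ± 0.438 CPM in libraries 1 and 2) and grd-3 at 2.11 (2.56 ± 0.579 CPM in libraries 3 and 4 and 0.605 ± 0.288 CPM in libraries 1 and 2). Patched-related genes, also a list added later, had 10 of 26 kept members higher and 0 lower, with a median log2 difference of 0.72. Their summed level nevertheless ran the other way, at 1170 to 1350 CPM in libraries 3 and 4 and 1530 to 1660 CPM in libraries 1 and 2, and 4 members had all of libraries 3 and 4 below all of libraries 1 and 2. Astacin proteases had 10 of 32 kept members higher and 1 lower, with a median log2 difference of 0.72, with nas-15 at 1.69 (4.82 ± 0.822 CPM in libraries 3 and 4 and 1.54 ± 0.621 CPM in libraries 1 and 2) and nas-38 at 1.70 (2.37 ± 0.59 CPM in libraries 3 and 4 and 0.719 ± 0.215 CPM in libraries 1 and 2). Of the 4 astacin genes that reached 10 CPM, 1 was higher and 1 lower (median -0.09). Summed astacin levels overlapped, at 189 to 214 CPM in libraries 3 and 4 and 168 to 194 CPM in libraries 1 and 2.

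Lists of nervous system genes differed among themselves. Of 31 kept neuronal genes 9 were higher and 0 lower, with a median of 0.76, and 28 had all of libraries 3 and 4 above. The POU homeobox gene unc-86, which specifies several neuron types, had 9.04 and 12.5 CPM in fasted and 11 and 11.9 CPM in fed libraries 3 and 4. It had 3.35 and 1.97 CPM in fasted and 2.44 and 1.7 CPM in fed libraries 1 and 2, a log2 difference of 2.26 and the largest of the list. The potassium channel gene slo-1 stood at 1.22, the touch neuron tubulin gene mec-7 at 1.12 (9.42 ± 0.209 CPM in libraries 3 and 4 and 4.36 ± 0.657 CPM in libraries 1 and 2) and the glutamate transporter gene eat-4 at 1.16 (2.63 ± 0.407 CPM in libraries 3 and 4 and 1.17 ± 0.199 CPM in libraries 1 and 2). Synaptobrevin, snb-1, had 174 and 166 CPM in fasted and 170 and 177 CPM in fed libraries 3 and 4. The level was 162 and 167 CPM in fasted and 163 and 165 CPM in fed libraries 1 and 2. Its sets overlapped, and its difference was 0.06. Neuropeptide genes had 5 of 98 kept members higher and 0 lower, with a median log2 difference of 0.36, a share of higher genes below the background, with flp-15 at 1.59 (18.1 ± 2.24 CPM in libraries 3 and 4 and 5.99 ± 0.75 CPM in libraries 1 and 2). Homeobox genes with ceh symbols had 15 of 55 kept members higher and 0 lower, with a median log2 difference of 0.39. At 10 CPM or more 1 of 16 was higher and the median was -0.11. Their sums overlapped, at 947 to 1010 CPM in libraries 3 and 4 and 988 to 1010 CPM in libraries 1 and 2, and 8 members had all of libraries 3 and 4 below all of libraries 1 and 2. Chemoreceptors had 53 of 272 kept members higher and 0 lower, with a median log2 difference of 0.73, and only 272 of 1203 in the table passed the filter. In fed animals the 272 genes summed to 103 and 108 CPM in libraries 3 and 4. The sums were 63.7 and 69.7 CPM in fed libraries 1 and 2, so most members lay under 1 CPM. Of all 4830 genes above 0.1 and up to 1 CPM at day 8, 1119 were higher, with a median of 0.71. Against genes that scarce, the chemoreceptor list did not stand out. The chemoreceptor-like gene srw-85 (WBGene00005832, chromosome V, 19429387 to 19431136) stood at 13.1 and 15.4 CPM in fasted and 14.5 and 17.8 CPM in fed libraries 3 and 4. This compared with 3.39 and 2.44 CPM in fasted and 3.13 and 2.38 CPM in fed libraries 1 and 2. Its difference of 2.42 put it among the 12 largest of the ranked genes. Guanylyl cyclases had 12 of 30 kept members higher and 0 lower, with a median log2 difference of 1.01, the chemoreceptor and cyclase lists both having been added after the values were seen. The cyclases' summed level overlapped, at 236 to 270 CPM in libraries 3 and 4 and 254 to 272 CPM in libraries 1 and 2, and 0 of the 4 that reached 10 CPM were higher (median 0.14).

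Muscle genes stood above in most members and met the 2-fold limit in few. Body wall muscle genes had 4 of 43 kept members higher and 0 lower, with a median log2 difference of 0.56, a share of higher genes below the background. No overlap was found for 36 of them with libraries 3 and 4 above and for 3 with them below. At 10 CPM or more 4 of 39 were higher (median 0.56), against 4.82% of all genes of that level (median -0.27). The myosin heavy chain gene unc-54 (WBGene00006789, chromosome I, 14855901 to 14863482) had 360 and 358 CPM in fasted and 480 and 378 CPM in fed libraries 3 and 4. Values were 315 and 221 CPM in fasted and 344 and 243 CPM in fed libraries 1 and 2, a log2 difference of 0.50, and its young level was 7620 ± 215 CPM in fasted and 6230 ± 290 CPM in fed young libraries. The second body wall myosin, myo-3, overlapped between sets at a difference of 0.56 (46.7 ± 8.62 CPM in libraries 3 and 4 and 31.7 ± 6.36 CPM in libraries 1 and 2). The 4 muscle genes counted as higher were the troponin I gene tni-1 at 1.41 (14.3 ± 0.957 CPM in libraries 3 and 4 and 5.51 ± 1.47 CPM in libraries 1 and 2), the perlecan gene unc-52 at 1.30 (93.2 ± 13.3 CPM in libraries 3 and 4 and 39.5 ± 14.1 CPM in libraries 1 and 2), the troponin T gene tnt-2 at 1.07 (48 ± 7.34 CPM in libraries 3 and 4 and 22.9 ± 3.93 CPM in libraries 1 and 2) and the integrin gene pat-2 at 1.05 (29.2 ± 1.03 CPM in libraries 3 and 4 and 14.1 ± 0.89 CPM in libraries 1 and 2). Summed muscle levels were 3740 to 4220 CPM in libraries 3 and 4 and 2750 to 3130 CPM in libraries 1 and 2, against 25700 to 27600 CPM in young libraries. Pharyngeal genes had 6 of 15 kept members higher and 0 lower, with a median log2 difference of 0.85, and 14 of 15 had no overlap. Of the 7 that reached 10 CPM, 0 met the rule for higher, at a median of 0.64. The pharyngeal myosin gene myo-2 stood at 0.52 (91.5 ± 8.35 CPM in libraries 3 and 4 and 64.4 ± 11.6 CPM in libraries 1 and 2), with no overlap, and the pharyngeal gene phat-4 at 1.82 (4.46 ± 1.35 CPM in libraries 3 and 4 and 1.31 ± 0.574 CPM in libraries 1 and 2). Basement membrane genes had 1 of 14 kept members higher and 0 lower, with a median log2 difference of 0.46. The 1 counted as higher was unc-52, which is also in the muscle list. All of libraries 3 and 4 stood above in 8 of the 14 and below in 0.

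Germline, oocyte and eggshell genes were on the other side, by a small and even margin. None of the 49 meiosis and germ granule genes met the rule, and 47 of them had all of libraries 3 and 4 below all of libraries 1 and 2 (median -0.64). The same held for 24 of 25 oocyte and maternal genes (median -0.61) and for all 13 eggshell genes (median -0.70). All members of these 3 lists reached 10 CPM, and among all 7633 genes of that level the share was 61.1% and the median -0.27. The Notch receptor gene glp-1, which keeps germ cells proliferating, had 246 and 253 CPM in fasted and 295 and 292 CPM in fed libraries 3 and 4. There were 431 and 433 CPM in fasted and 468 and 438 CPM in fed libraries 1 and 2. Its sets did not overlap, at a difference of -0.71. The oocyte RNA-binding gene oma-1 (WBGene00003864, chromosome IV, 8888976 to 8890999) had 208 and 214 CPM in fasted and 246 and 236 CPM in fed libraries 3 and 4. The counterparts were 340 and 352 CPM in fasted and 363 and 348 CPM in fed libraries 1 and 2, a difference of -0.64, and the eggshell gene cbd-1 had -0.75 (2030 ± 205 CPM in libraries 3 and 4 and 3400 ± 280 CPM in libraries 1 and 2). The largest differences were those of the nuclear Argonaute gene hrde-1 at -0.90, daz-1 at -0.83 and the PUF protein gene fbf-2 at -0.82, of the yolk receptor gene rme-2 at -0.79 and lin-41 at -0.78, and of the eggshell genes cpg-1 at -0.81 and egg-5 at -0.81. The caveolin gene cav-1 went the other way at 0.75 (626 ± 34 CPM in libraries 3 and 4 and 372 ± 23.8 CPM in libraries 1 and 2). It was also far lower in young adults (7.64 ± 0.908 CPM in fasted and 8.7 ± 0.976 CPM in fed young libraries). These medians were -0.37 for meiosis, -0.35 for oocyte and -0.43 for eggshell genes without scaling factors.

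DNA replication and cell division genes gave 53 of 56 members with libraries 3 and 4 below and a median of -0.37, against the same 61.1% and -0.27. The anillin gene ani-2 stood at -0.78 (195 ± 12.2 CPM in libraries 3 and 4 and 333 ± 17.1 CPM in libraries 1 and 2). The cyclin D gene cyd-1 was the exception that stood above, at 0.89 (79.7 ± 10.8 CPM in libraries 3 and 4 and 43 ± 4.18 CPM in libraries 1 and 2). The median of the division list was -0.10 without scaling factors. Somatic gonad genes had 1 of 8 kept members higher and 0 lower, with a median log2 difference of -0.05. The 1 counted as higher was the LIM homeobox gene lim-7 at 1.68 (22.8 ± 3.57 CPM in libraries 3 and 4 and 7.07 ± 0.96 CPM in libraries 1 and 2). Sperm genes gave 20 of 85 higher and a median of 1.65, at levels near the floor. Their summed level was 50.4 and 80.2 CPM in fasted and 107 and 55.5 CPM in fed libraries 3 and 4, against 52.1 and 51.4 CPM in fasted and 48 and 49.2 CPM in fed libraries 1 and 2, so the sets overlapped in the sum. Young libraries held 4580 to 6840 CPM. The major sperm protein gene msp-142 was under 0.6 CPM in every day 8 library and overlapped between sets. Its counts may be split among near-identical copies. Male genes had 2 of 5 higher, with lov-1 at 1.15 (0.777 ± 0.0242 CPM in libraries 3 and 4 and 0.339 ± 0.0483 CPM in libraries 1 and 2).

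**Figure D2:**
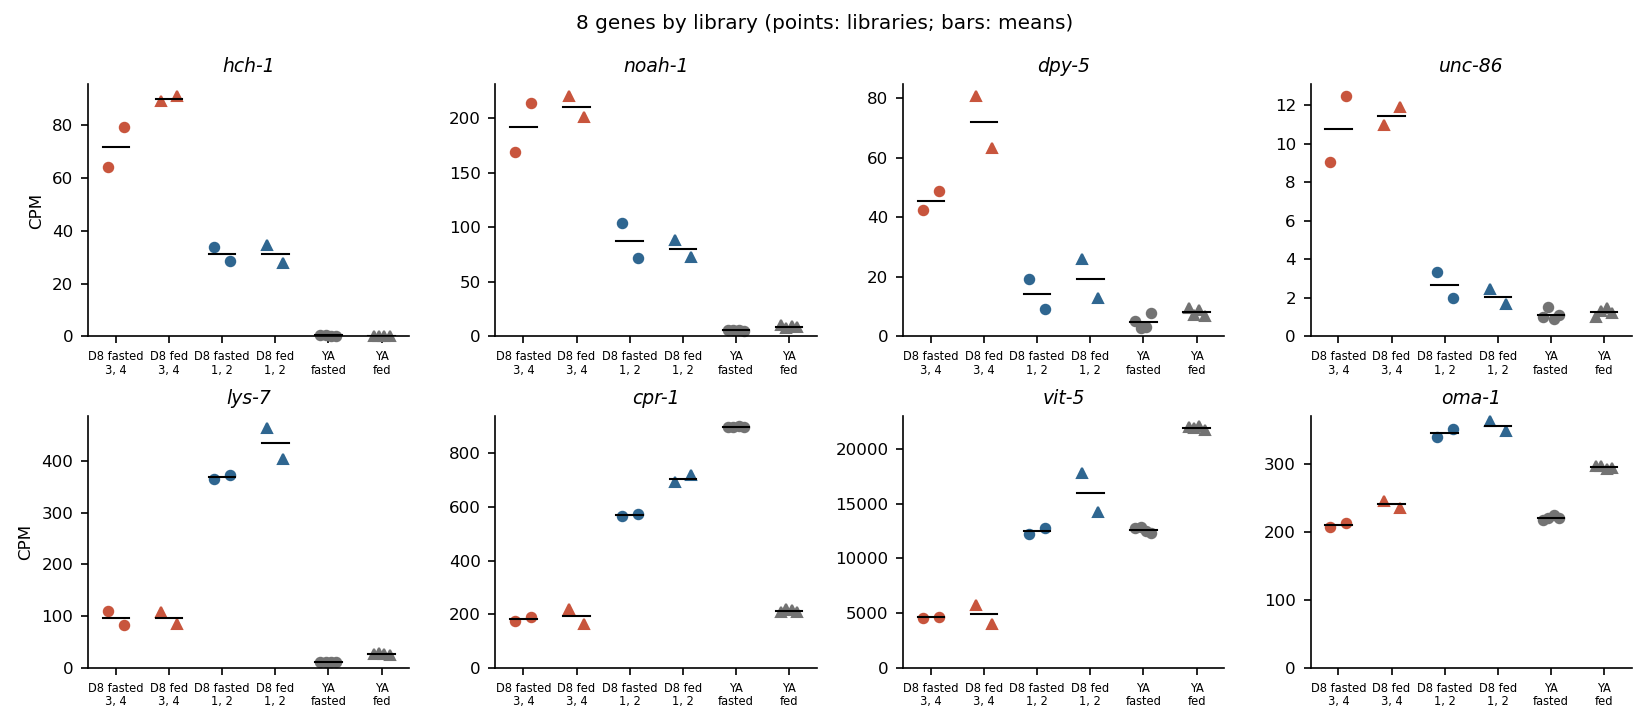
CPM (vertical axis, from 0) of 8 genes in each library, with day 8 libraries 3 and 4 in red, day 8 libraries 1 and 2 in blue and young adults in grey, circles fasted and triangles fed. Bars are means of 2 libraries at day 8 and 4 in young adults. The upper genes are higher in libraries 3 and 4, and the lower genes are lower there.

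Several lysozyme and intestinal protease genes were lower. The lysozyme gene lys-7 (WBGene00003096, chromosome V, 3481432 to 3482600) led with 110 and 82.4 CPM in fasted and 108 and 85.2 CPM in fed libraries 3 and 4. Its level was 365 and 372 CPM in fasted and 464 and 404 CPM in fed libraries 1 and 2, a log2 difference of -2.06. It stood at 11 ± 0.387 CPM in fasted and 26.9 ± 1.63 CPM in fed young libraries. Lysozymes as a list had 1 of 15 kept members higher and 6 lower, with a median log2 difference of -0.78. The invertebrate-type lysozyme gene ilys-5 stood at -1.75 (32.9 ± 7.28 CPM in libraries 3 and 4 and 113 ± 36.1 CPM in libraries 1 and 2) and ilys-3 at -1.07 (15.1 ± 4.01 CPM in libraries 3 and 4 and 31.8 ± 8.31 CPM in libraries 1 and 2), whereas lys-3 was higher at 1.71 (24.9 ± 3.98 CPM in libraries 3 and 4 and 7.64 ± 1.55 CPM in libraries 1 and 2). Among intestinal genes 4 of 19 were lower and 0 higher, with a median of -0.21 that was 0.06 without scaling factors. The cathepsin B gene cpr-1 (WBGene00000781, chromosome V, 11975551 to 11976756) had 175 and 189 CPM in fasted and 221 and 164 CPM in fed libraries 3 and 4. Set against these were 568 and 573 CPM in fasted and 692 and 718 CPM in fed libraries 1 and 2, a difference of -1.77. The other 3 were cpr-4 at -1.1 (175 ± 10 CPM in libraries 3 and 4 and 377 ± 31.3 CPM in libraries 1 and 2), the ferritin gene ftn-1 at -1.09 (9.48 ± 2.74 CPM in libraries 3 and 4 and 19.6 ± 1.55 CPM in libraries 1 and 2) and the aspartyl protease gene asp-3 at -1.04 (204 ± 17.9 CPM in libraries 3 and 4 and 420 ± 37.5 CPM in libraries 1 and 2). The intestinal GATA factor gene elt-2, in contrast, had 5.03 and 5.5 CPM in fasted and 5.7 and 5.63 CPM in fed libraries 3 and 4. It had 4.78 and 4.67 CPM in fasted and 5.39 and 5.81 CPM in fed libraries 1 and 2. Its sets overlapped, at a difference of 0.09.

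Yolk protein genes did not move as one. The gene vit-5 (WBGene00006929, chromosome X, 3403471 to 3408603) had 4600 and 4630 CPM in fasted and 5790 and 4010 CPM in fed libraries 3 and 4. The level was 12200 and 12800 CPM in fasted and 17800 and 14200 CPM in fed libraries 1 and 2, a difference of -1.58. In vit-6 the sets did not overlap either, at -0.81 (7360 ± 831 CPM in libraries 3 and 4 and 13000 ± 2120 CPM in libraries 1 and 2), while vit-2 overlapped at -0.35 (9920 ± 1460 CPM in libraries 3 and 4 and 12700 ± 1820 CPM in libraries 1 and 2) and vit-3 was higher at 1.09 (353 ± 124 CPM in libraries 3 and 4 and 171 ± 67 CPM in libraries 1 and 2). Vitellogenin genes are close copies, so their counts may have been shared among them. Negative differences at 10 CPM or more were likewise ranked only among genes with a lettered symbol. The 12 largest also took in the acid sphingomyelinase gene asm-3 at -2.02, the aspartyl protease gene asp-17 at -1.89, the thaumatin-like gene thn-2 at -1.89 and dod-24 at -1.79. They held as well the saposin-like gene spp-1 at -1.75, the lectin gene clec-209 at -1.62 and the lipase genes lipl-1 and lipl-5, both at -1.47. The gene spp-1 overlaps a gene on the other strand. Saposin-like genes as a list, added later, had 1 of 26 kept members higher and 5 lower, with a median log2 difference of -0.41. C-type lectins had 21 of 151 kept members higher, close to the background, and 8 lower, with a median log2 difference of 0.08. Of the 27 lectin genes that reached 10 CPM, 2 were higher and 5 lower (median -0.75). Summed lectin levels were 2590 to 2860 CPM in libraries 3 and 4 and 3080 to 3320 CPM in libraries 1 and 2. Of 33 insulin-like peptide genes 5 were higher and 1 was lower. That was ins-19, which had 0.0498 and 0.08 CPM in fasted and 0.168 and 0.238 CPM in fed libraries 3 and 4. This compared with 0.736 and 0.887 CPM in fasted and 1.55 and 1.01 CPM in fed libraries 1 and 2, the largest negative difference among named genes at -2.87 at levels near 1 CPM in libraries 1 and 2.

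Proteasome and ribosomal protein genes had small negative medians, as did all abundant genes, and small heat shock genes were higher. All 33 proteasome genes and 70 of 78 ribosomal protein genes had libraries 3 and 4 below, at medians of -0.37 and -0.27. All but 1 of these genes reached 10 CPM, and among all genes of that level 61.1% had libraries 3 and 4 below, with a median of -0.27. Without scaling factors these medians were -0.10 and 0, so the direction of the ribosomal list rests on the scaling. Of 8 genes in the small heat shock list, which also holds hsp-70, 6 were higher (median 1.16), and their sum was 191 and 158 CPM in fasted and 178 and 198 CPM in fed libraries 3 and 4, against 71.6 and 70.2 CPM in fasted and 38.9 and 82.8 CPM in fed libraries 1 and 2. The chaperone gene hsp-16.48 had 67.9 and 60.1 CPM in fasted and 29.1 and 33.2 CPM in fed libraries 3 and 4. Values were 14.4 and 19.6 CPM in fasted and 3.88 and 21.5 CPM in fed libraries 1 and 2, a difference of 1.85. The hsp-16 genes lie in near-identical pairs, so the split of counts between copies is uncertain. Detoxification genes had 29 of 177 kept members higher, close to the background of all kept genes, and 4 lower, with a median log2 difference of 0.29. Of the 37 that reached 10 CPM, 9 were higher and 0 lower (median -0.02), against 4.82% higher among all genes of that level. Summed detoxification levels overlapped, at 1220 to 1310 CPM in libraries 3 and 4 and 1260 to 1390 CPM in libraries 1 and 2. The 2 coelomocyte genes, unc-122 and cup-4, overlapped between sets.

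The set difference can be set side by side in fasted and in fed animals, which share no library. Both states entered the split, so their likeness is a description. Over 17844 genes the difference in fasted and the difference in fed libraries had a correlation of 0.735, and 87.3% of genes had the same sign in both. Some collagen genes differed in direction between the feeding states. Of 140 collagens, 14 (10%) were at least 2-fold higher in libraries 3 and 4 among fed animals and below libraries 1 and 2 among fasted animals, against 196 of all genes (1.1%). Single libraries weighed in this count. In 3 of the 14 (col-81, col-129 and col-139) fed library 4 was not above both fed libraries 1 and 2, and in 13 of the 14 fasted library 1 was the highest of the 4 fasted libraries. The sets also varied within. In libraries 1 and 2 the median level of body-shape collagens, relative to the mean of the 8 libraries on the log2 scale, was -0.35 and -1.58 in fasted and -0.20 and -1.22 in fed animals. In both feeding states library 1 lay nearer to libraries 3 and 4, which stood at 0.605 and 0.72 in fasted and 0.969 and 0.719 in fed animals. Hedgehog-related genes gave the same order, at -0.213 and -1.13 in fasted and -0.406 and -0.672 in fed libraries 1 and 2. On the first principal component of the 8 day 8 libraries (56.5% of the variance) libraries 3 and 4 lay at 37.1 to 62.6 and libraries 1 and 2 at -62.2 to -39.4.

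**Figure D3:**
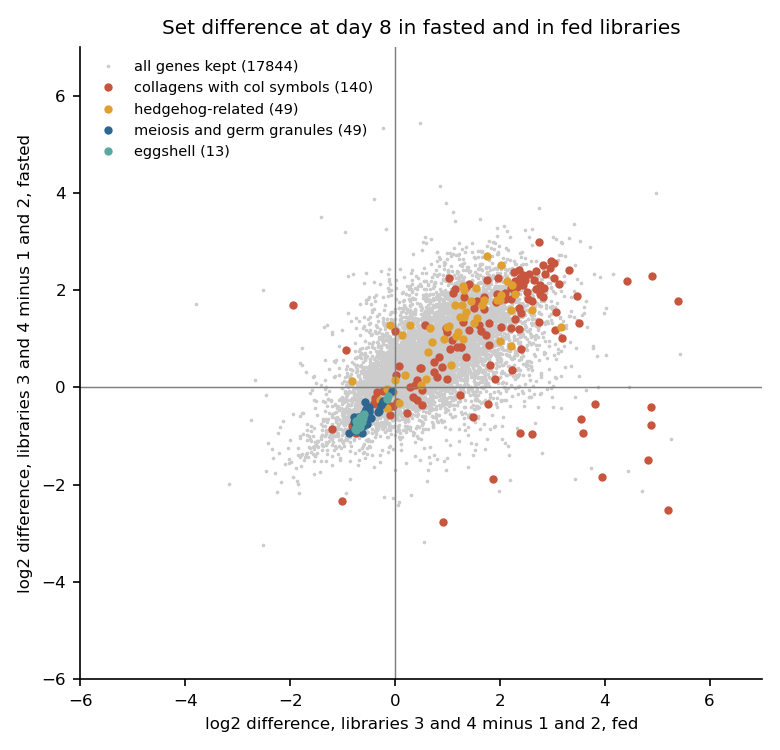
Log2 difference between day 8 libraries 3 and 4 and libraries 1 and 2 in fed animals (horizontal axis) and in fasted animals (vertical axis) for each of 17844 genes in grey, with 4 gene lists in colour. Germline and eggshell genes form a tight group below 0 on both axes, most collagens lie above 0 on both, and 14 collagens lie at 1 or more in fed and below 0 in fasted animals.

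In young adults no gene was called between libraries of the same numbers. Libraries 3 and 4 against 1 and 2 of the young adults, tested over fasted and fed animals in one edgeR quasi-likelihood model of all 16 libraries, gave 0 genes higher (0%) and 0 lower (0%) at a Benjamini-Hochberg adjusted p under 0.05. The smallest adjusted p was 0.449, and 705 genes (3.95%) had an unadjusted p under 0.05. DESeq2 called 2 genes higher and 0 lower, and edgeR on the 8 young libraries alone called 6 higher and 1 lower. The 5th and 95th percentiles of the log2 difference were -0.59 and 1.7 at day 8 and -0.37 and 0.48 in young adults, where 23 genes were higher and 10 lower by the day 8 rule. For the lists that stood apart at day 8, the young medians were 0.08 for body-shape collagens, -0.07 for hatching and first cuticle genes, 0.11 for hedgehog-related genes and -0.01 for meiosis genes. Over all genes the young and the day 8 difference had a correlation of 0.07.

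**Figure D4:**
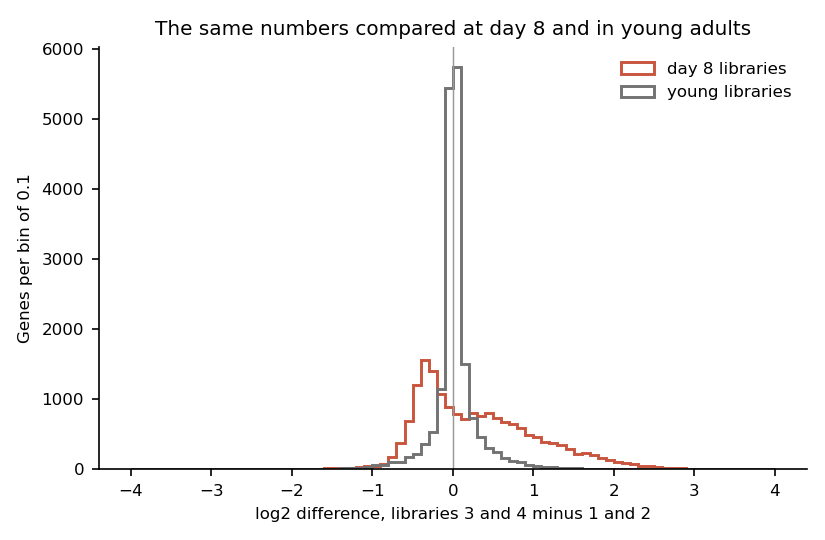
Number of genes (vertical axis) by the log2 difference between libraries 3 and 4 and libraries 1 and 2 (horizontal axis, bins of 0.1), for day 8 libraries in red and young libraries in grey. The young curve is a narrow peak at 0, and the day 8 curve peaks below 0 and has a long tail to the right. Values beyond -4 or 4 are drawn in the end bins.

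Fasting changed more genes in libraries 3 and 4 than in libraries 1 and 2 by count. At an edgeR adjusted p under 0.05, 194 genes rose (1.09%) and 728 fell (4.08%) in fasted against fed libraries 3 and 4, and 28 rose (0.157%) and 86 fell (0.482%) in libraries 1 and 2. The counts for libraries 3 and 4 lean on single libraries. Leaving out 1 of these 4 libraries moved both counts markedly in 3 of 4 runs, and both were lowest without fasted library 3. In such runs the lone library of a group was assumed to vary like the other groups. With the 8 day 8 libraries fitted alone the counts were 34 and 34 for libraries 3 and 4 and 8 and 33 for libraries 1 and 2. A difference between the responses was called for far fewer genes, 12 higher (0.0672%) and 12 lower (0.0672%) in libraries 3 and 4, with 1577 genes at an unadjusted p under 0.05. With a term for each replicate number (the replicate block) these were 5 and 5, without fed library 2 they were 1 and 0, and with the 8 day 8 libraries alone they were 1 and 1.

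A lower response in libraries 3 and 4 was largest, at 10 CPM or more, for col-175, col-138, bli-6, rol-1, col-71 and col-38. These 6 genes were highest in fed libraries 3 and 4. The collagen gene col-138 (WBGene00000711, chromosome IV, 17182884 to 17183729) had 0.0249 and 0.19 CPM in fasted and 22.8 and 23.4 CPM in fed libraries 3 and 4. There were 2.56 and 0.109 CPM in fasted and 0.717 and 0.508 CPM in fed libraries 1 and 2, and the fasting response differed by -8.76 ± 1.28 (SE, edgeR adjusted p = 0.0189). The collagen gene bli-6 had 0.0622 and 0.1 CPM in fasted and 16.8 and 14.9 CPM in fed libraries 3 and 4. The counterparts were 2.59 and 0.0546 CPM in fasted and 1.17 and 0.285 CPM in fed libraries 1 and 2, a difference of -8.46 ± 1.44 (SE, edgeR adjusted p = 0.0415). The others were col-175 at -8.85 ± 1.48, rol-1 at -8.05 ± 1.27, col-71 at -4.41 ± 0.61 and col-38 at -3.78 ± 0.57. In libraries 3 and 4 alone all 6 fell with fasting, from -3.80 ± 0.42 for col-38 to -7.69 ± 1.12 for col-175 (edgeR adjusted p of 0.000385 and 0.0028), and none of the 6 was called in libraries 1 and 2. Fasted library 1, where col-138 had 2.56 and bli-6 had 2.59 CPM, moved the difference most. Without it the difference was -5.17 for col-138, -3.90 for bli-6, -3.03 for rol-1 and -2.82 for col-38 (edgeR adjusted p of 0.445, 0.816, 0.846 and 0.0625), and 0.35 for col-175 (adjusted p = 0.984). None of the 6 was called without fed library 2 or without fasted library 3, at adjusted p from 0.0724 to 0.18, while the differences stayed between -10.23 and -3.71. Of 140 col genes, 28 fell and 0 rose with fasting in libraries 3 and 4 (median -0.55), and 4 fell and 1 rose in libraries 1 and 2 (median -0.03). The medians over all genes were -0.02 and 0. Without fasted library 3 or without fed library 3 the falls in libraries 3 and 4 numbered 13 and 15.

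The response was higher in libraries 3 and 4 for 12 genes, among them acyl-CoA oxidase genes. Peroxisomal acyl-CoA oxidases shorten very long fatty acids and ascaroside side chains. The acyl-CoA oxidase gene acox-1.1 (WBGene00008564, chromosome I, 12938555 to 12942227) had 103 and 103 CPM in fasted and 62.7 and 71.6 CPM in fed libraries 3 and 4. Its level was 59.4 and 58.3 CPM in fasted and 56.6 and 54.7 CPM in fed libraries 1 and 2. It rose by 0.62 ± 0.06 in libraries 3 and 4 (edgeR adjusted p = 0.00011) and stood at 0.08 ± 0.06 in libraries 1 and 2 (adjusted p = 0.791), a difference of 0.53 ± 0.08 (adjusted p = 0.0256). The short-chain dehydrogenase gene dhs-18 (WBGene00000981, chromosome V, 11045705 to 11046833) had 47.6 and 48.3 CPM in fasted and 26.8 and 26.4 CPM in fed libraries 3 and 4. Set against these were 29 and 28 CPM in fasted and 25.3 and 27.2 CPM in fed libraries 1 and 2, a difference of 0.73 ± 0.07 (edgeR adjusted p = 0.00167). It was called without any 1 of the 8 libraries, at adjusted p from 0.00104 to 0.0146, and missed the threshold with the 8 day 8 libraries fitted alone (adjusted p = 0.0624). Other genes called higher at 10 CPM or more included acox-3 at 0.67 ± 0.09 and the acyl-CoA synthetase gene acs-7 at 0.71 ± 0.11. They also took in clec-5 at 0.72 ± 0.10 and dod-24 at 1.30 ± 0.21. The calls of these 4 genes and of acox-1.1 were lost without fed library 2 or without fasted library 1, where the differences were 0.55 to 1.33. Those of dod-24, acs-7 and acox-1.1 were also lost without other single libraries. Over all 8 runs their differences ranged from 0.95 to 1.61, 0.64 to 0.8 and 0.46 to 0.63, in this order. With the 8 day 8 libraries fitted alone, only 1 gene in all was called for a higher response. Of 26 peroxisomal genes, 11 rose and 0 fell with fasting in libraries 3 and 4 (median 0.25), and 0 rose and 0 fell in libraries 1 and 2 (median 0.06), while the difference was called for 2 of them. With each of the libraries 3 and 4 left out, 7 to 10 of the 26 rose.

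The fasting response of the flavin monooxygenase gene fmo-2 was called in libraries 1 and 2 alone, and the difference between the responses was called too. The gene stood at 137 and 130 CPM in fasted and 144 and 147 CPM in fed libraries 3 and 4. There were 102 and 96.1 CPM in fasted and 57.4 and 63.5 CPM in fed libraries 1 and 2, so that it stood at -0.12 ± 0.09 in libraries 3 and 4 (SE, edgeR adjusted p = 0.547) and rose by 0.71 ± 0.09 in libraries 1 and 2 (adjusted p = 0.00133). The difference was -0.84 ± 0.12 (adjusted p = 0.0189). With the 8 day 8 libraries fitted alone, only 1 gene in all was called for a lower response in libraries 3 and 4. The ammonium transporter gene amt-1 and moa-1 were also called for a lower response in libraries 3 and 4, and both are named here after their values were seen. Fasting responses of moa-1 were -0.90 in libraries 3 and 4 and 0.95 in libraries 1 and 2 (edgeR adjusted p of 0.00222 and 0.042). The moa-1 level was low, at 0.735 and 0.93 CPM in fasted and 1.68 and 1.45 CPM in fed libraries 3 and 4. In libraries 1 and 2 it was 0.654 and 0.532 CPM in fasted and 0.287 and 0.325 CPM in fed animals. The amt-1 level stood at 1.58 and 1.20 CPM in fasted and 0.94 and 0.973 CPM in fed libraries 3 and 4, against 2.33 and 2.57 CPM in fasted and 0.538 and 0.427 CPM in fed libraries 1 and 2. Its fasting responses were 0.53 in libraries 3 and 4 and 2.35 in libraries 1 and 2 (edgeR adjusted p of 0.0849 and 3.8e-05).

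**Figure D5:**
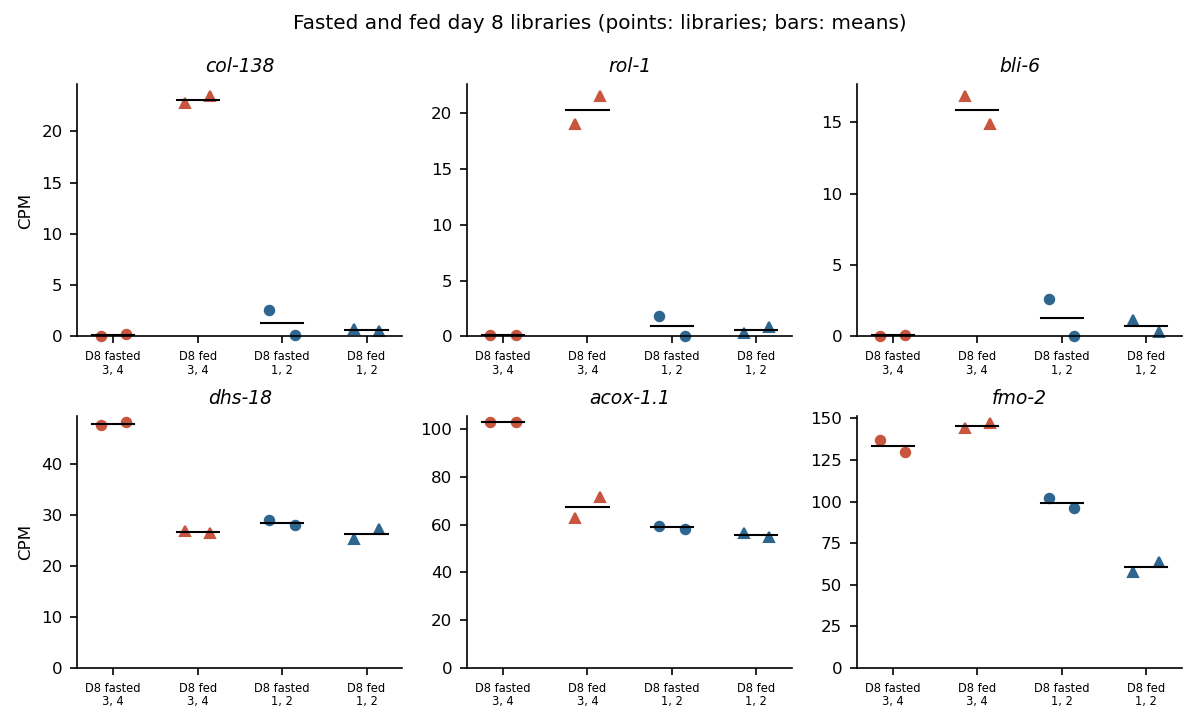
CPM (vertical axis, from 0) of 6 genes in fasted (circles) and fed (triangles) day 8 libraries, 3 and 4 in red and 1 and 2 in blue. Bars are means of 2 libraries. The 3 upper genes are highest in fed libraries 3 and 4, dhs-18 and acox-1.1 are highest in fasted libraries 3 and 4, and fmo-2 is lowest in fed libraries 1 and 2.

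Several responses were shared. The largest fall among genes of at least 10 CPM in libraries 1 and 2 was that of semo-1, an ortholog of the methanethiol oxidase SELENBP1, with 10.7 and 10.5 CPM in fasted and 20.5 and 19.8 CPM in fed libraries 3 and 4. The level was 8.38 and 8.47 CPM in fasted and 23.1 and 31.6 CPM in fed libraries 1 and 2. It fell by 0.93 ± 0.11 on the log2 scale in libraries 3 and 4 and by 1.70 ± 0.11 in libraries 1 and 2 (SE, edgeR adjusted p of 0.000461 and 1.01e-05). The acyl-CoA dehydrogenase gene acdh-1 stood at -0.72 ± 0.17 and -1.51 ± 0.18, dod-19 at -0.88 ± 0.10 and -1.14 ± 0.10, and the purine synthesis genes atic-1 and paic-1 at -0.33 ± 0.09 and -0.44 ± 0.11 in libraries 3 and 4 and at -0.96 ± 0.09 and -0.93 ± 0.11 in libraries 1 and 2. All 5 genes were called in both sets. The cystathionine lyase gene cth-1 rose by 1.15 ± 0.13 and 1.29 ± 0.13 and the glutaminase gene glna-2 by 0.41 ± 0.08 and 0.59 ± 0.08, in the same order. The alcohol dehydrogenase gene adh-1 stood at 0.12 ± 0.03 in libraries 3 and 4, short of the threshold (edgeR adjusted p = 0.0571), and rose by 0.40 ± 0.03 in libraries 1 and 2.

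Core histone genes, which package DNA, made up the largest rises in libraries 3 and 4, with calls that depended on single libraries. Of 55 core histone genes 23 rose and 1 fell there (median 1.33), and 0 rose and 0 fell in libraries 1 and 2 (median 0.98). Without fasted library 3 or without fed library 3 no core histone gene was called in libraries 3 and 4 (medians 0.56 and 1.24). The histone gene his-49 had 30.6 and 9.45 CPM in fasted and 1.59 and 3.09 CPM in fed libraries 3 and 4. This compared with 15.5 and 10.5 CPM in fasted and 2.14 and 4.7 CPM in fed libraries 1 and 2. It rose by 3.10 ± 0.69 in libraries 3 and 4 (SE, edgeR adjusted p = 0.0239). The histone gene his-8 had 18.8 and 7.78 CPM in fasted and 1.54 and 2.59 CPM in fed libraries 3 and 4. Values were 7.96 and 6.83 CPM in fasted and 1.83 and 4.9 CPM in fed libraries 1 and 2, and it rose by 2.68 ± 0.44 in libraries 3 and 4. Fasted library 3 was the highest library for both. Without it the changes were 2.04 and 1.94 and were not called (adjusted p of 0.274 and 0.0686). The difference between the sets was called for 0 histone genes. Histone transcripts lack a polyA tail in large part, copies are near identical, and the libraries were made from polyA RNA, so the counts rest on whatever part was captured.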

How the data were processed

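Polyadenylated RNA of whole nematodes was sequenced in 16 libraries, 4 in each of 4 groups, grouped by the labels' titles. The authors deposited 1 table of estimated counts for 21882 genes, which are not all whole numbers. The submitters' processing notes name DESeq and the WBcel235 genome build, while the aligner and counting tool were not given in the sources used here. Symbols and coordinates come from the Ensembl annotation of that build, release 115, which holds 21714 of the gene IDs and a symbol for 19626.

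Counts were rounded, genes with low counts were removed with filterByExpr (17844 kept, 4038 removed), and libraries were scaled by TMM in edgeR 4.0.16 (R 4.3.3). Log2 CPM used a prior count of 2. The filter let 81 genes through on libraries 3 and 4 alone. Differences between the day 8 sets are averages of the fasted and the fed difference. Tests used edgeR's quasi-likelihood test on a model of all 16 libraries with a mean for each age, feeding state and set, with Benjamini-Hochberg adjustment over all kept genes and a threshold of 0.05. DESeq2 1.42.0, other scalings, no filter, one age alone, a replicate block and leaving out single libraries were tried as alternatives.

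The sets, gene lists and tests were chosen with earlier results of these data known, and the lists of chemoreceptors, guanylyl cyclases, cuticlins, patched-related and saposin-like genes were added after the values were seen. Named genes include the 12 with the largest difference in each direction at 10 CPM or more. These were ranked among higher or lower genes with a lettered symbol (letters, hyphen, number). Up to 4 members of each list at 1 CPM or more and fixed defining genes are also named. So are the 6 largest called rises and falls of each tested contrast with no overlap, at 10 CPM or more and with a lettered symbol. Genes named beyond these were chosen after their values were seen. Some lists share members, among them hch-1, nas-6, dpy-17 and unc-52, so they are not separate observations. Deviations of same-numbered day 8 libraries from their group means correlated at 0.329 to 0.564, which is the split itself; within sets the correlation was 0.0795 for libraries 1 and 2 and -0.225 for libraries 3 and 4. Young same-numbered libraries gave -0.00458 to 0.0399, so numbers were not taken to pair libraries.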

Additional observations from a re-analysis of the deposited data

Results flagged for a closer look

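In 6 of 162 groups of 4 libraries, 1 library stood apart by its gap to the nearest other library as a share of the group's range by Dixon's 95% limit. Chance alone gives about 1 such group in 20. In fed library 3, unc-54 (0.829) and vit-2 (0.929) stood apart from the other libraries 3 and 4. Fed library 4 stood apart for the level of C-type lectins (0.938), and fasted library 4 for patched-related genes (0.855). Among libraries 1 and 2, fed library 1 stood apart for the proteasome list (0.837) and for cbd-1 (0.876).

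The fasting response differed between the day 8 sets, in edgeR's test of the difference itself, for 24 genes. It was higher in libraries 3 and 4 for H25K10.1 (log2 difference 8.8), dod-24 (1.3), F55H12.2 (0.94), math-4 (0.9), dhs-18 (0.73), clec-5 (0.72), acs-7 (0.71), acox-3 (0.67), ZK550.6 (0.64), C50B6.7 (0.55), acox-1.1 (0.53) and acds-10 (0.51). The response of H25K10.1 rests on counts of 0 in both fasted libraries 1 and 2, and its level was at most 1.15 CPM, so its size depends on the prior count. The response was lower in libraries 3 and 4 for fmo-2 (-0.84), amt-1 (-1.82), moa-1 (-1.85), col-38 (-3.78), C18A3.7 (-4.12), col-71 (-4.41), Y51H7C.13 (-5.97), col-60 (-6.28), rol-1 (-8.05), bli-6 (-8.46), col-138 (-8.76) and col-175 (-8.85). C18A3.7 stayed at or below 0.119 CPM in every day 8 library.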

How the results depend on the processing

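The split into higher and lower genes rests on scaling, on the 2-fold limit and on scarce genes. Without scaling factors 3673 genes were higher and 64 lower; with no overlap as the sole rule 5067 and 5150; at 10 CPM or more 368 and 65. Lower genes numbered 231 in fed libraries alone and 203 with the median of all genes subtracted, an alternative chosen after seeing the data, as was the 10 CPM limit. Leaving out each library gave 2435 to 3291 higher and 91 to 149 lower. With a library fewer, the rule of no overlap is easier to meet, so these counts do not gauge stability.

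List medians moved with scaling. RLE gave -0.03 for early embryo, -0.59 for meiosis and -0.56 for oocyte genes, and halved counts gave -0.59 and -0.56 for the last 2 lists. Without scaling factors medians were 0.18 for early embryo, 1.52 for hatching, 1.12 for molting, -0.37 for meiosis, -0.35 for oocyte, 0.83 for body wall muscle and 1.02 for neuronal genes, and reversed for adult collagens (0.12), core histones (0.18), intestine (0.06), somatic gonad (0.22) and coelomocytes (0.18), as for early embryo. Without the filter they were 0.01 for early embryo, -0.55 for meiosis, -0.52 for oocyte, 0.01 for core histones, 0.66 for muscle, 0.85 for neurons and 0.04 for somatic gonad. Fed libraries alone gave 0.42 for adult collagens, 0.02 for somatic gonad and -0.11 for C-type lectins. Fasted libraries alone gave 0.68 for molting, 0.17 for core histones and -0.01 for C-type lectins. With each library left out, medians ranged from -0.06 to 0.09 for early embryo, 0.78 to 1.06 for molting, -0.41 to 0.24 for adult collagens, -0.65 to -0.52 for meiosis, -0.63 to -0.50 for oocyte, -0.34 to 0.35 for core histones, 0.51 to 0.73 for muscle, 0.73 to 0.88 for neurons, -0.07 to 0.07 for somatic gonad and -0.15 to 0.04 for coelomocytes.

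Counts of called genes were less stable. Between young sets DESeq2 gave 2 higher, the 8 young libraries alone 6 higher and 1 lower, and leaving out a library 0 to 1 higher. For fasting in libraries 3 and 4 DESeq2 gave 354 rises and 1129 falls, no scaling 118 and 128, the 8 day 8 libraries alone 34 and 34, and leaving out a library 43 to 232 and 62 to 999. For libraries 1 and 2 DESeq2 gave 90 and 208, day 8 libraries alone 8 and 33, and leaving out a library 15 to 49 and 51 to 127. For the difference between the responses DESeq2 gave 57 higher and 69 lower, no scaling 7 higher, day 8 libraries alone 1 and 1, and leaving out a library 1 to 38 and 0 to 94; col-175 ranged from -10.23 to 0.35. The replicate block gave 5 and 5, and crossing numbers 3 and 4, chosen after seeing the data, gave 15 and 22. The model of all 16 libraries shares a single estimate of the spread per gene between day 8 and young libraries. Scatter between libraries of the same group and set, relative to counting error, was 3.63 to 4.86 at day 8 and 1.67 to 2.98 in young adults. The cause of these shifts was not tested. Depth was 58.38 M counts or more, and genes under 1 CPM in both sets (5347) were the least certain.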
